A study of Fukomys damarensis with 47 samples.

Results

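RNA-Seq profiles of vehicle-treated cells from the lumbar vertebrae (LV) of 3 queens and 10 nonbreeding females were compared. These 13 libraries, out of 47 in the series, are the LV cultures labelled as given no estradiol, and each came from a different Damaraland mole-rat (*Fukomys damarensis*). Queens are females that had been moved out of their natal colony and paired with an unrelated male. Nonbreeders comprised 6 helpers, which stayed in the natal colony, and 4 solitaires, which were housed alone. LV1 to LV5 were incubated in collagenase, and their marrow was spun out and pooled within an animal. It was depleted of red blood cells and plated in serum with basic fibroblast growth factor, so that all groups share this procedure. Adherent clusters, once visible, were then fed vehicle medium for 24 hr. Time in culture before that varied, and the study fitted days in culture as a covariate. These days are not in the labels and were not analysed here. The culture procedure enriches for mesenchymal stromal cells of the marrow (bMSCs) but does not give a pure population.

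Each queen had 1 sister (an animal of the same natal colony) among the helpers, and these pairs are called DV, LA and WA after the letters that begin the animals' names. The 3 queens and their 3 sisters were 1003 to 1006 days old, whereas the other 7 nonbreeders were 1076 to 1232 days old. Their libraries also differed in depth, with 8516460 to 16327339 counts in the 6 younger animals and 5672201 to 7699402 in the 7 older ones. Age, depth and natal colony therefore cannot be told apart when queens are set against all nonbreeders. The same holds for date of sacrifice, which the study accounts for through natal colony. All 4 solitaires were among the older animals and all 3 sisters were helpers, so housing too goes in part with age. Only the sister pairs compare animals of like age. The WA queen stood apart: its library was the deepest, and on the second principal component of the 13 libraries it lay at 13.6, while the other 5 younger animals lay between -44.4 and -16.4 and the 7 older animals between 0.51 and 46.2. Results that rest on it are given with and without it.

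Bone is built by osteoblasts, which descend from stromal cells and lay down collagen matrix, and is dissolved by osteoclasts, which descend from the myeloid line that also gives rise to monocytes and macrophages. Osteoclasts acidify a sealed patch of bone with proton pumps and digest the exposed matrix with proteases such as cathepsin K. Marrow cultures selected for adherence keep stromal cells, but they also retain macrophages, which adhere as well. The matrix gene *COL1A1* was read in all 13 cultures at 85.9 to 1224 CPM (counts per 1000000 counts of a library), and *ENG*, a surface marker of bMSCs, at 0.54 to 51.6 CPM. *LAPTM5*, a lysosomal membrane protein of blood cells, was also read in all of them, at 11.9 to 426 CPM. In bulk cultures, more cells of a type and more RNA per cell cannot be told apart.

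No gene differed between queens and nonbreeders at a false discovery rate (FDR) of 10% in edgeR's quasi-likelihood test, blocked by natal colony. Over all 11047 genes tested, 194 were higher in queens at an unadjusted p under 0.05 (1.76% of genes) and 48 were lower (0.435%), together 242 genes (2.19%) where 552 would be expected by chance. Because each other nonbreeder shares a colony only with nonbreeders or with no one, the queen effect in this fit comes from the 3 sister pairs alone. Without the block, with 3 queens against 10 nonbreeders, again no gene passed an FDR of 10%, and 387 genes were higher (3.5%) and 384 lower (3.48%) at an unadjusted p under 0.05. The DESeq2 Wald test called 37 genes at an FDR of 10% with the block and limma voom called 0. These counts moved with single animals, and leaving out either sister removes her pair. The blocked fit gave 49 genes higher and 60 lower without the WA queen, 298 and 35 without the LA queen and 237 and 21 without the DV queen, and leaving out their sisters gave 54 and 59, 297 and 36, and 230 and 22. Without WEF001 or WEF002, a pair of older nonbreeders, 83 and 85 genes were lower.

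On the higher side the smallest p among genes with a symbol was that of *ADAM8*, a gene that was far apart in the WA pair. *ADAM8*, a membrane metalloprotease of myeloid cells that promotes osteoclast formation, was read at 0.561, 2.59 and 27.7 CPM in the DV, LA and WA queens and at 0.112, 0.402 and 1.19 CPM in their sisters. Every queen was above her own sister, as for 7.92% of all genes, yet the 10 nonbreeders, from 0.112 to 8.13 CPM with a median of 1.72, overlapped all but the WA queen. Its log2 fold change was 3.67 ± 0.54 (SE; unadjusted p = 1.09e-04, adjusted p = 0.600), and it was 2.51 with p = 0.0053 without the WA queen. The latter value rests on few counts. The DV and LA sisters were at 0.112 and 0.402 CPM. In their libraries a count of 0 allows up to 0.337 and 0.305 CPM. Without the block the log2 fold change was 1.79 (p = 0.0871).

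*CLEC4E*, the macrophage lectin Mincle, was read at 1.79, 9.39 and 17 CPM in the DV, LA and WA queens and at 1.12, 1.71 and 1.82 CPM in their sisters. *C3AR1*, the receptor for the complement fragment C3a, was read at 4.04, 7.77 and 24.4 CPM in the queens and at 1.91, 2.31 and 3.88 CPM in the sisters. For both genes every queen exceeded her sister, and the gap was smallest in the DV pair and widest in the WA pair. Their log2 fold changes were 2.29 ± 0.73 and 1.89 ± 0.71 (SE; unadjusted p = 0.0127 and 0.0282). The other 7 nonbreeders had more of both genes than any sister, so that without the block the 2 log2 fold changes turned to -1.09 and -1.20.

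*CD180*, a Toll-like receptor homologue of B cells and macrophages, and *TLR8*, an endosomal receptor for single-stranded RNA, followed the same order at low levels. *CD180* was read at 0.785, 1.08 and 2.17 CPM in the DV, LA and WA queens and at 0.302 to 0.337 CPM in the sisters. *TLR8* had 0 counts in the DV queen and in her sister, which allows up to 0.352 CPM in the queen's library as far as counting error goes, and was read at 1.30 and 3.70 CPM in the LA and WA queens and at 0.503 and 0.317 CPM in their sisters. The log2 fold changes were 2.01 ± 0.60 for *CD180* and 2.46 ± 0.74 for *TLR8*, and without the block they were -1.89 and -0.81. Without the WA queen neither *CD180*, *TLR8*, *CLEC4E* nor *C3AR1* stayed at an unadjusted p under 0.05, with p between 0.0913 and 0.23.

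**Figure D1:**
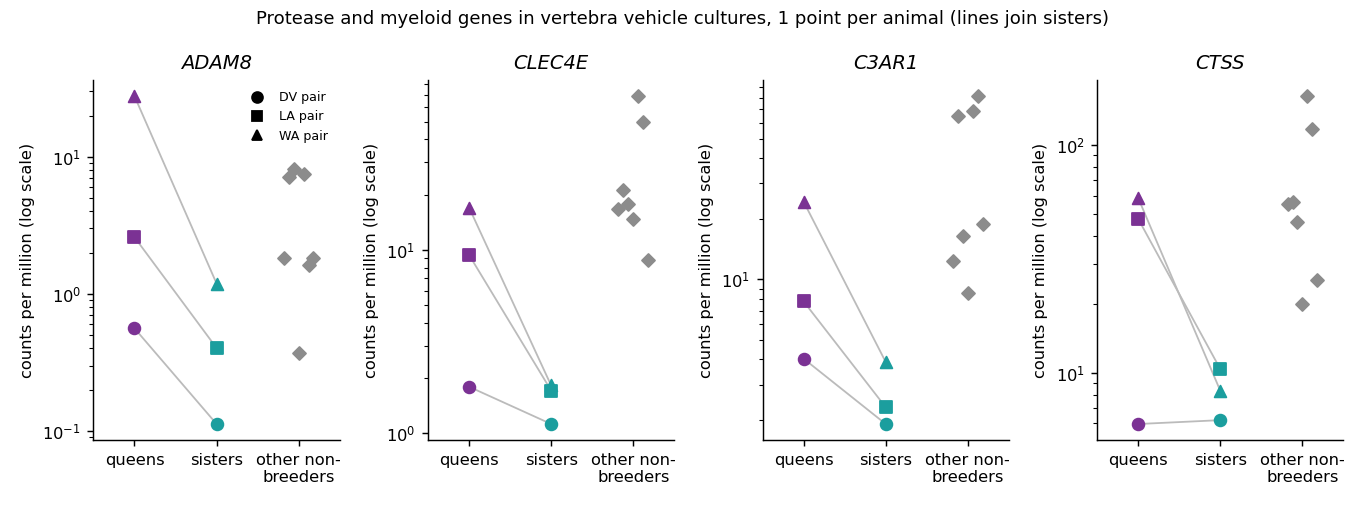
CPM on a log axis for ADAM8, CLEC4E, C3AR1 and CTSS in each of the 13 LV vehicle cultures, with queens in purple, their sisters in teal and the other 7 nonbreeders in grey; lines join sisters and the marker shape gives the pair. The queen lies above her sister in all 3 pairs for ADAM8, CLEC4E and C3AR1 and in 2 of 3 for CTSS, and for the last 3 genes all other nonbreeders lie above all sisters.

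*SHTN1*, an actin-linking protein known from growing axons, was read at 4.04, 22.1 and 31.7 CPM in the DV, LA and WA queens and at 3.82, 3.72 and 4.52 CPM in the sisters. The DV queen was thus level with her sister, and the other 2 queens were far above theirs (log2 fold change 1.92 ± 0.64, unadjusted p = 0.0157). *SGPL1*, the lyase that ends sphingosine 1-phosphate signalling, showed a smaller difference, with 49.3, 47.4 and 115 CPM in the queens and 33.8, 37.5 and 60.6 CPM in the sisters (0.60 ± 0.22, p = 0.0248). Without the WA queen these values were 1.38 (p = 0.114) and 0.44 (p = 0.177). Without the LA queen *SHTN1*, *C3AR1* and *CLEC4E* were at 1.54, 1.97 and 2.20 (p = 0.0971, 0.0724 and 0.0577), and without the DV queen *SGPL1* was at 0.63 (p = 0.0692).

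Over a list of 22 leukocyte markers, 21 were tested, and 8 were higher and 2 lower in queens at an unadjusted p under 0.05, against 1.76% and 0.435% of all genes. None passed an FDR of 10%, and the median log2 fold change was 1.18, with 15 of 21 above 0, where the median of all genes was 0.0025 and 5586 of 11047 were above 0. The 3 pairs differed: the median was 0.00 in the DV pair, 0.79 in the LA pair and 1.35 in the WA pair. Among the markers of highest level, *CTSS*, the antigen-processing cathepsin S, was read at 5.94, 47.4 and 58.5 CPM in the queens and at 6.18, 10.4 and 8.32 CPM in the sisters (1.75 ± 0.68, unadjusted p = 0.0323), and its log2 fold change was 1.13 without the WA queen (p = 0.193) and 1.47 without the LA queen (p = 0.147). *IL7R*, the interleukin 7 receptor, was higher in the queen in all 3 pairs, with 36.4, 67.7 and 67.6 CPM against 20.3, 38.9 and 21.5 CPM, and missed that threshold (1.10 ± 0.50, p = 0.0578). *LAPTM5* was lower in the DV queen than in her sister and higher in the other 2 (1.01 ± 0.70, p = 0.184). The next 2 markers in level, *LCP2* and *CORO1A*, had negative log2 fold changes (-0.60 ± 0.48 and -0.27 ± 0.44, unadjusted p = 0.242 and 0.561). Both are named after their values were seen.

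This list depended on single animals and on the choice of nonbreeders. Without the WA queen or her sister, 1 of 21 markers was higher and 2 were lower at an unadjusted p under 0.05, with a median of 0.91, and without the LA queen or her sister 3 were higher and 1 lower, with a median of 1.35. Leaving out either older nonbreeder of colony G4 left 5 markers higher, and leaving out the DV queen or her sister left 0 lower. Without the block, 4 of 21 lay above 0, 0 were higher and 3 lower at an unadjusted p under 0.05, and the median was -0.81. Summed over all 22 markers of the list, tested or not, the queens had 92.7, 231 and 421 CPM in the DV, LA and WA animals, the sisters 109 to 148 CPM and the other 7 nonbreeders 184 to 1201 CPM. Sisters and the other nonbreeders did not overlap, and the queens spanned the range from below the lowest sister to above the median of the older animals. Of the 21 markers, 11 (52.4%) were higher in every one of the 7 older nonbreeders than in any of the 3 sisters, against 3.17% of all tested genes. The share of these sister-against-older differences in the comparison of queens with all nonbreeders was not tested beyond the fit with age class. In that fit the median was 1.46.

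**Figure D2:**
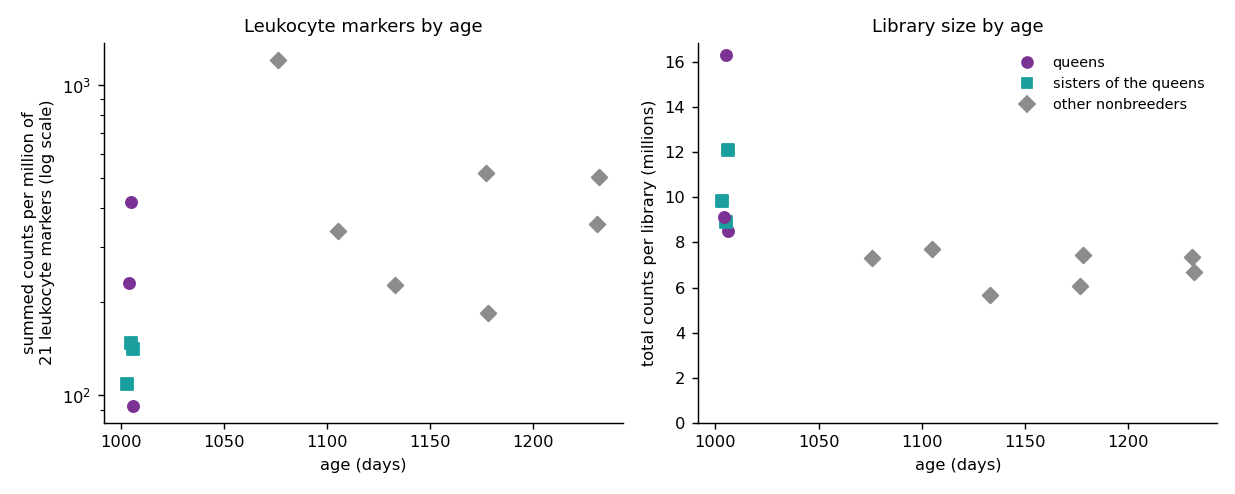
Left, summed CPM of all 22 leukocyte markers (log axis, whose label counts only the 21 tested) against age in days, and right, total counts per library (in units of 1000000) against age, for queens (purple circles), their sisters (teal squares) and other nonbreeders (grey diamonds). The 6 animals of 1003 to 1006 days have the deeper libraries, and the sisters have the markers at 109 to 148 CPM, below all older nonbreeders.

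The list of osteoclast and bone resorption genes, partly drawn from these samples, had a median above 0 in each of the sister pairs. Of 13 genes on this list, 7 of which the study drew from gene ontology terms on these samples and so are no independent evidence of direction, 5 were higher and 0 lower at an unadjusted p under 0.05, against 1.76% and 0.435% of all genes. The median log2 fold change was 0.86, where that of all genes was 0.0025, with pair medians of 0.26, 1.12 and 1.40 in DV, LA and WA. The 5 genes were *ADAM8*, the only member with a symbol under that p, and 4 members without a symbol. The counts and medians of this list include the 7 genes drawn from the study. Setting them against all genes is therefore no independent support. *ATP6V1D*, a subunit of the proton pump used by all acidic organelles, had a log2 fold change of 0.01 ± 0.19, and *CTSK*, the collagen-cleaving cathepsin K, of 0.26 ± 0.45, both smaller than their errors. The remaining members with a symbol, *ATP6V0A1*, *CYBC1* and *NFKB2*, had log2 fold changes of 0.26, -0.01 and -0.16, none under that p. These last genes are named after their values were seen. The member of highest level without a symbol, ENSFDAG00000015535, was read at 246, 572 and 521 CPM in the DV, LA and WA queens and at 241, 262 and 198 CPM in the sisters (0.86 ± 0.38, p = 0.0532). Without the WA queen or her sister 2 of 13 genes were higher at an unadjusted p under 0.05, with a median of 0.58, and without the block 2 were higher and the median was 0.35. The leukocyte sum was higher in the queen in the LA and WA pairs and lower in the DV pair, and its part in this difference was not tested.

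On the lower side, *GRAP2*, the adaptor Gads of T-cell receptor signalling, was read at 1.91, 0.54 and 4.34 CPM in the DV, LA and WA queens and at 9.33, 3.12 and 6.97 CPM in the sisters. *DAPP1*, an adaptor of B-cell receptor signalling, was read at 5.72, 1.73 and 5.99 CPM in the queens and at 22, 3.62 and 12.7 CPM in the sisters. Each queen had less of both than her sister, as for 8.17% of all genes in 3 of 3 pairs, opposite to most of the leukocyte list to which they belong. The log2 fold changes were -1.70 ± 0.50 (unadjusted p = 0.00903) and -1.38 ± 0.54 (p = 0.0320). *MYL4*, an embryonic and atrial myosin light chain, was also lower in each queen than in her sister, at 49.3, 34.3 and 22.9 CPM against 91.1, 82.1 and 36.5 CPM (-0.94 ± 0.37, p = 0.0340). Without the DV queen *GRAP2*, *DAPP1* and *MYL4* were at -1.39, -1.07 and -0.96 (p = 0.0618, 0.152 and 0.0850), and *DAPP1* and *MYL4* also lost that p without the LA or the WA queen.

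Among genes with a symbol on the lower side, *GLIPR2*, described below, was also under an unadjusted p of 0.05 (p = 0.0458 in the blocked fit). *IL13RA2*, *FLI1*, *GUCY1A1* and *ANGPT2* were over it. *IL13RA2*, the decoy receptor for interleukin 13, was read at 2.24, 9.61 and 18 CPM in the queens and at 26.5, 17 and 16.4 CPM in the sisters, so the pairs did not share a direction (-1.25 ± 0.62, p = 0.0746). The transcription factor *FLI1* (-0.73), the guanylate cyclase subunit *GUCY1A1* (-0.64) and the vessel ligand *ANGPT2* (-0.54) were lower in the queen in all 3 pairs, with p from 0.0860 to 0.0935. Without the block *ANGPT2* turned to 0.58 (p = 0.440), and the older nonbreeders had 1.11 to 8.15 CPM where the younger animals had 5.61 to 22.2 CPM.

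A smaller group of genes differed in the same direction from sisters and from the older nonbreeders. Of 11047 genes, 66 had an unadjusted p under 0.05 both with and without the block, 64 of them in the same direction. Both fits hold the same queens and sisters, so neither is independent support for the other. *DIO2*, the deiodinase that activates thyroid hormone within cells, was read at 77.8, 51.5 and 24.0 CPM in the DV, LA and WA queens and at 29.8, 32.6 and 16.6 CPM in their sisters. The other 7 nonbreeders had 7.23 to 19.9 CPM, below all 3 queens, and only the WA queen lay within the range of the sisters. Its log2 fold change was 0.86 ± 0.32 with the block (unadjusted p = 0.0285, adjusted p = 1) and 1.58 ± 0.41 without it (p = 0.00147, adjusted p = 0.696). *GLIPR2*, a Golgi membrane protein, was read at 162, 181 and 180 CPM in the queens and at 386, 220 and 203 CPM in the sisters. It was read at 203 to 755 CPM over the 10 nonbreeders, above all queens, as for 0.317% of all genes. Its log2 fold change was -0.56 ± 0.24 with the block (p = 0.0458) and -1.28 ± 0.35 without it (p = 0.00246). Without the DV queen the blocked values were 0.59 for *DIO2* (p = 0.179) and -0.23 for *GLIPR2* (p = 0.371), and without the LA queen they were 0.96 (p = 0.0591) and -0.71 (p = 0.0535).

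Over all genes, the 3 queens lay above all 10 nonbreeders for 25 genes (0.226%) and below them for 35 (0.317%). Those with a symbol were *MYC* on the higher side and *GLIPR2*, *FHL1*, *RUFY1* and *ITPRIPL1* on the lower side, of which all but *GLIPR2* and *FHL1* are named after their values were seen. *FHL1*, a LIM domain protein of muscle and contractile cells, was read at 539, 491 and 546 CPM in the queens and at 655 to 1511 CPM in the nonbreeders. Each sister had more than her queen, with a log2 fold change of -0.52 ± 0.29 with the block (p = 0.105) and -1.02 without it (p = 0.00387). *MYC*, a transcription factor of cell growth, was read at 9.19, 9.07 and 12.1 CPM in the DV, LA and WA queens and at 2.23 to 8.56 CPM in the nonbreeders, and its log2 fold change within sister pairs was 0.27 ± 0.33 (p = 0.433). *SLC46A1*, the proton-coupled folate transporter, was the other gene with a symbol besides *DIO2*, *GLIPR2* and *MYL4* that had a p under 0.05 in the same direction in both fits, with log2 fold changes of 1.04 and 0.84. *SLC46A1* too is named after its values were seen.

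**Figure D3:**
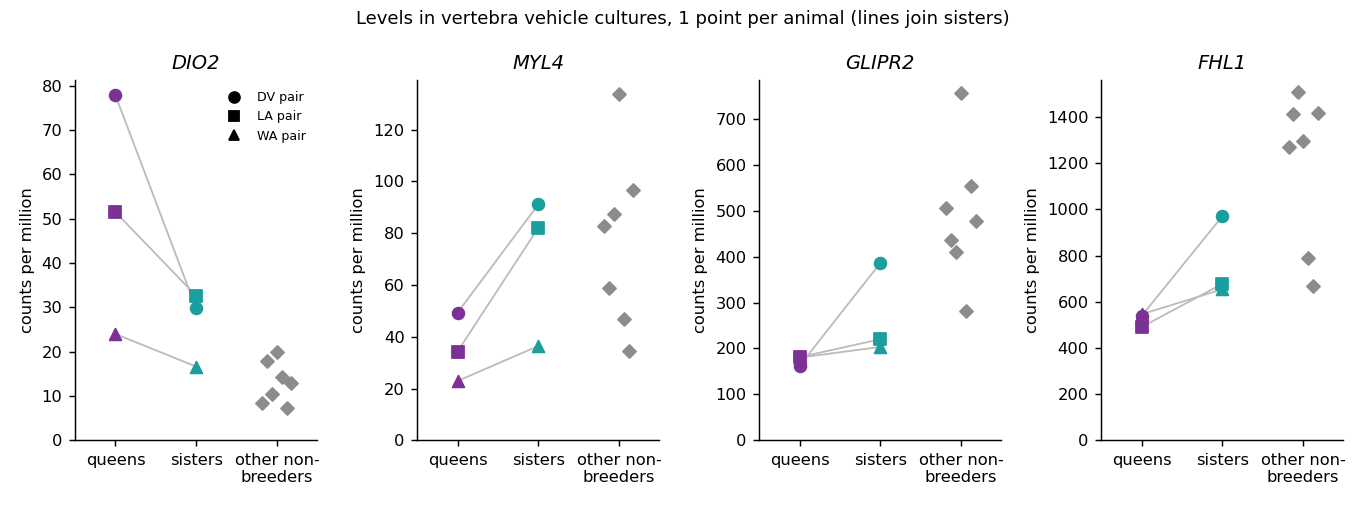
CPM, on linear axes from 0, of DIO2, MYL4, GLIPR2 and FHL1 in each of the 13 LV vehicle cultures, with queens in purple, sisters in teal and other nonbreeders in grey, and lines joining sisters. DIO2 is higher and the other 3 genes are lower in the queen in all 3 pairs, and for GLIPR2 and FHL1 all queens lie below all 10 nonbreeders. The latter held for 0.317% of all genes.

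Other genes were among the smallest p only without the block. *H2AFJ*, a histone H2A variant, had a log2 fold change of 2.81 (p = 0.00212), but in the pairs the DV queen was below her sister at 0.561 against 1.35 CPM, and the block left 1.26 ± 1.05. *TENT5B*, a nucleotidyltransferase that extends messenger RNA tails, had 2.06 without the block and 0.70 ± 0.48 with it. *FLT3*, a receptor of blood progenitors, was read at 0.216 to 0.352 CPM in the queens and at 0 to 6.81 CPM in the nonbreeders, and its log2 fold change of -3.58 without the block became -0.50 ± 0.92 with it. Of the contractile markers, 3 were lower without the block at an unadjusted p under 0.05, *FHL1*, *GUCY1A1* and *MYL9* (a regulatory myosin light chain, -0.62), and none with it.

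Among genes without a symbol, the smallest p in the blocked fit belonged to ENSFDAG00000002758, the single gene past an FDR of 20% (0.00905% of genes, adjusted p = 0.121). It had 0, 5 and 402 counts in the DV, LA and WA queens and 0, 0 and 10 counts in the sisters, but 272 to 1905 counts in the other nonbreeders. The fitted log2 fold change was 4.85, 4.25 without the WA queen (p = 0.0114) and -3.95 without the block, and with so few counts in the younger animals it is no measure of a fold. ENSFDAG00000012109 was likewise high in the WA queen alone, at 43.4 CPM against 0 to 6.64 CPM in nonbreeders, and its log2 fold change was 4.30 with her and 3.08 without (p = 0.0450). On the lower side, ENSFDAG00000012180 was read at 12.3, 9.28 and 13 CPM in the queens and at 43.7, 42.8 and 25.8 CPM in the sisters, with like log2 fold changes in both fits (-1.66 ± 0.41 and -1.70). ENSFDAG00000017006 had 10, 9 and 162 counts in the queens and 100, 104 and 215 in the sisters (-2.28 ± 0.54), and 333 to 1824 counts in the older animals.

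Of 16 genes of bone matrix and mineral, none was past an unadjusted p of 0.05 in either direction, and the median log2 fold change was 0.10, with 12 of 16 above 0. Without the WA queen the median turned to -0.21, with 5 of 16 above 0, and without the block 3 genes, *COL1A1*, *ANKH* and *MMP2*, were higher at that p and the median was 0.17. *ANKH*, which exports pyrophosphate, the inhibitor of mineral, had the smallest p of this list, with 264, 282 and 188 CPM in the queens and 135, 232 and 163 CPM in the sisters (0.49 ± 0.24, p = 0.0805). The matrix protein genes *THBS1*, *SERPINF1* and *COL5A2* had log2 fold changes of -0.19, 0.11 and 0.04. None of 23 tested genes of growth factor signalling (median 0.10), 8 stromal transcription factors (0.09) or 20 genes of collagen folding and protein export (-0.07) had an unadjusted p under 0.05.

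On the remaining lists, no gene had an unadjusted p under 0.05 among 5 endothelial markers (median -0.18), 10 contractile cell markers (0.02), 5 adipocyte markers (0.05), 16 tested genes of interferon and inflammatory signalling (-0.14) and 24 cell cycle genes (0.10). Of 18 lysosome genes, *CTSS*, which is also on the leukocyte list, was the 1 gene under that p, and the median was 0.24. The lysosomal cysteine protease genes *CTSV* and *CTSZ* had log2 fold changes of 0.72 ± 0.33 and 0.46 ± 0.28. For cell cycle genes the median was -0.28 without the block, with 5 of 24 above 0.

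**Figure D4:**
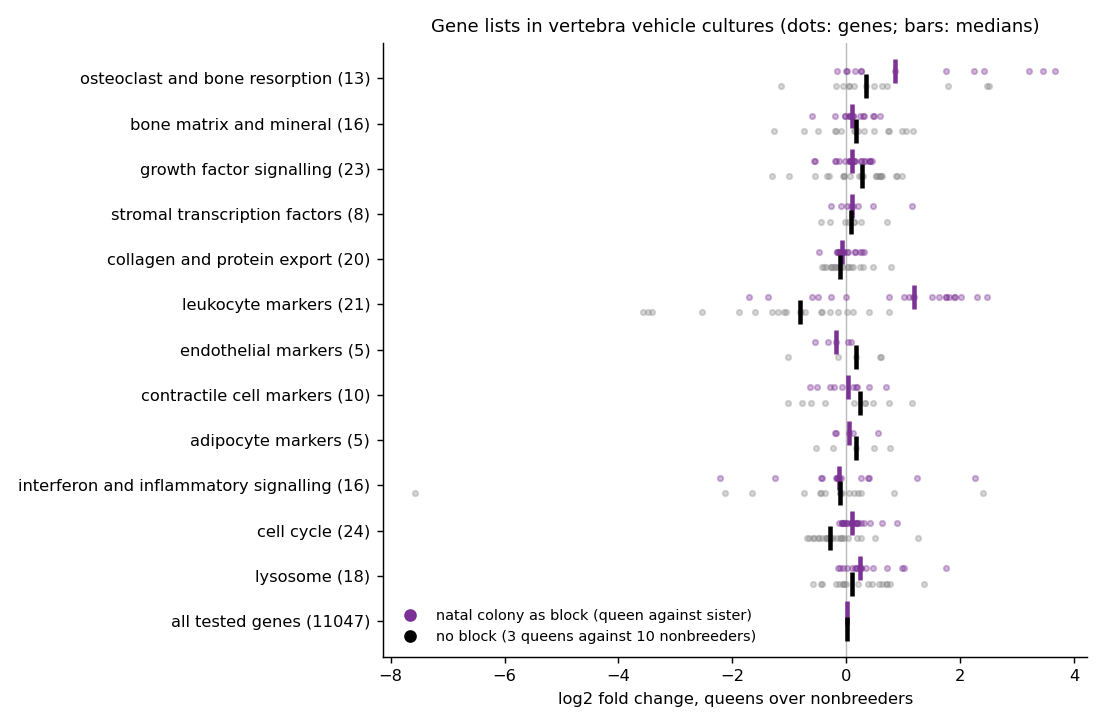
Log2 fold change of queens over nonbreeders for the tested genes of 12 lists (dots) and their medians (bars), with natal colony as a block (purple) and without it (grey dots, black bars); the number tested is in parentheses. The leukocyte median is 1.18 with the block and -0.81 without it, the resorption medians are 0.86 and 0.35, and the medians of all 11047 genes lie near 0. The resorption list includes genes that the study drew from these samples.

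Levels of 5 genes were also compared over animals with an exact two-sided permutation test over all ways to choose 3 of 13 animals, whose smallest possible p is 0.00350. *CTSK* was 9.06 ± 0.19 log2 CPM in queens and 8.14 ± 0.94 in nonbreeders (SD; n = 3 and 10; permutation p = 0.129). *COL1A1* was 9.18 ± 0.98 and 8.19 ± 0.78 (permutation p = 0.115), and the queen was the higher of each pair, a case in which the exact test over 3 pairs can reach no p under 0.25. The queen and nonbreeder means differed by 0.93 for *ENG*, 1.05 for *ADAM8* and -0.38 for *LAPTM5*, with permutation p of 0.395, 0.406 and 0.682. This test takes no account of sisters or age. Within the 3 pairs the mean queen minus sister difference was 2.56 ± 1.58 for *ADAM8* and 0.87 ± 2.05 for *LAPTM5* (SD), the latter opposite in sign to the difference over all animals. Adjusted over the 5 genes, p lay between 0.323 and 0.682, and none of the 5 differences passed the test.

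The same animals were also profiled in pooled long bones, and both DV and WA pairs in LV cultures given 10 nM estradiol. Since these cultures share animals, their values are set side by side and are no independent support. The long bones were not incubated in collagenase, so bone type and this step cannot be told apart. For *ADAM8* the queen minus sister difference in log2 CPM was 1.21, 2.16 and 4.30 in LV vehicle cultures of the DV, LA and WA pairs, 0.06, 1.24 and 6.70 in long bones, and -0.77 and 3.78 for DV and WA under estradiol. For *CLEC4E* it was 0.58, 2.31 and 3.07 in LV, 0.90, 2.75 and 4.81 in long bones, and 1.03 and 3.26 under estradiol. In each culture type the WA pair had the widest gap for both of these genes, and the DV pair the narrowest.

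For *DIO2* the differences in LV were 1.38, 0.66 and 0.52, whereas in long bones they were -0.13, 0.31 and 0.20. For *GRAP2* they were -2.16, -2.12 and -0.66 in LV and -0.36, -1.16 and -1.20 in long bones, lower in the queen throughout, and under estradiol they were -1.75 and -2.16. *DAPP1* was also lower in the queen in every pair and culture type. *MYL4* was lower in all 3 LV vehicle pairs but higher in the DV queen in long bones (0.27) and under estradiol (0.71).

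**Figure D5:**
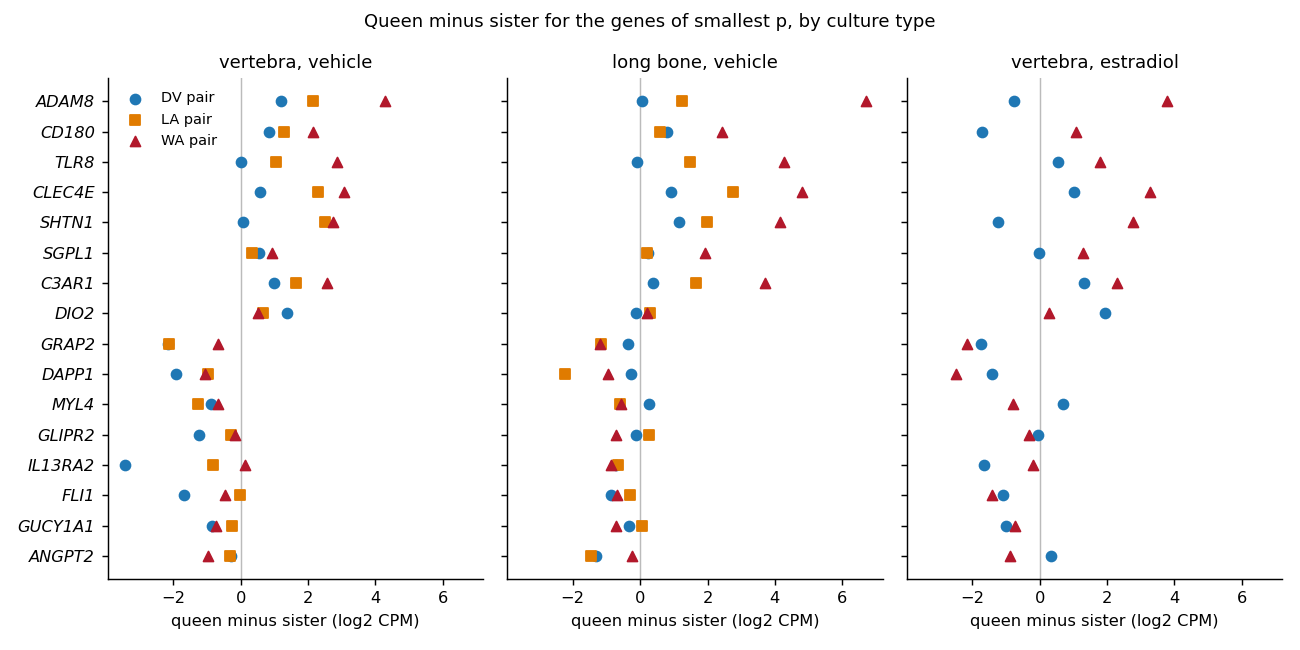
Queen minus sister difference in log2 CPM for the 16 named genes of smallest p, in LV vehicle, long bone vehicle and LV estradiol cultures, by pair (DV circles, LA squares, WA triangles). The WA pair is farthest to the right for ADAM8, CD180, TLR8, CLEC4E, SHTN1, SGPL1 and C3AR1 in all 3 culture types, and GRAP2 and DAPP1 lie left of 0 in every pair.

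Whether the queen effect differed between LV and long bones was tested over the 26 vehicle libraries of the same 13 animals. The fit held animal as a block and bone type by natal colony, so the tested difference comes from the 3 sister pairs alone. The difference was higher in LV for 24 genes (0.217%) and lower for 65 (0.588%) when an unadjusted p under 0.05 was asked for. Over both directions together, 552 would be expected by chance. Only 1 gene (0.00905%) passed an FDR of 10%. That gene, ENSFDAG00000020801 (named after its values were seen; adjusted p = 0.0526), had 0 counts in both queens and sisters of the DV and LA pairs in LV, and 608 counts in the WA queen against 4 in her sister. In long bones the 3 queens had 284, 74 and 140 counts and their sisters 151, 15 and 347. The call was lost without MAF003, DVF007 or DVF008. *DPEP1*, a membrane dipeptidase, had the smallest p among symbols (-1.10 ± 0.30, p = 0.00391, adjusted p = 1), followed on that side by *ARL11*, a small GTPase of macrophages (-1.28 ± 0.50, p = 0.0278). *ASB5*, a ubiquitin ligase adaptor (1.15 ± 0.48), and *TAF4B*, a subunit of the general transcription factor TFIID (0.89 ± 0.38), stood on the other side. The median difference between bone types was -0.49 for the leukocyte list and -0.21 for the resorption list, where that of all genes was 0.0018.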

How the data were processed

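The authors trimmed reads with cutadapt 2.3, mapped them with STAR to the Damaraland mole-rat assembly DMR_v1.0 and counted uniquely mapped reads per Ensembl gene with HTSeq; the deposited values are raw counts for 33562 genes in 47 libraries. The strand setting of the counting is not given in the sources used here, so overlapping, antisense and near-identical genes are uncertain. Symbols came from the study's supplementary gene table, of which only part was read (1147 symbols, 1117 of them tested). Days in culture, a covariate of the study's model, were not analysed here.

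A gene was tested if it reached 2 CPM in 25% or more of the 47 libraries (11047 genes). Here edgeR 4.0.16 in R 4.3.3 (quasi-likelihood, TMM, Benjamini-Hochberg) was fitted to 13 libraries with natal colony as a block, which leaves 4 residual degrees of freedom, and 11 without it. Natal colony was read from the letters (and digit) with which an animal's name begins, and the study's methods use it to account for littermates and date of sacrifice, so the pairing comes from the design. After group means were removed, sister libraries correlated across genes at -0.04 (LA) to 0.42 (WA) over 5 pairs, and other pairs at a median of -0.15. DESeq2 1.42.0, limma 3.58.1 (voom) and other filters, samples and covariates were alternatives. CPM and log2 CPM (prior count 2) use TMM factors, and SE is the log2 fold change over the root of the F statistic. CPM is not scaled by gene length, so levels were not compared between genes. The scripts were tested on simulated data. No libraries were copies of each other (48 pairs, chi-squared per degree of freedom at least 24.6). Replicates are separate animals. Plots used matplotlib 3.10.9.

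Genes named are, per direction, the 8 with and 2 without a symbol of smallest p in the blocked fit, 3 without the block, 2 for the difference between bones, in each of 12 lists those of highest level or smallest p, and CTSK, COL1A1, ENG, ADAM8 and LAPTM5, with a mean of at least 1 CPM for the first 3 sets. The comparison, the lists and these rules were chosen with earlier results of these data known.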

Additional observations from a re-analysis of the deposited data

Results flagged for a closer look

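In the 10 nonbreeders, the level of each of 69 named genes and the total counts were examined for 1 animal far from the others, by the gap to its neighbour as a share of the whole range (Dixon's test at the 95% level). Chance alone gives this in about 1 in 20 groups, and 7 of 70 levels were past it. On the log2 CPM scale, WEF001 was lowest for *IGFBP5* (5.56) and highest for *MCM6* (8.84), *RRM1* (8.54) and *CTSV* (8.41). G4F020 was lowest for *MEDAG* (0.059), G1F025 highest for *IL6ST* (6.91) and NOF007 highest for *CTSZ* (9.10). All 4 animals are among the older nonbreeders outside the sister pairs, so these levels enter the comparison without the block and not the queen effect of the blocked fit.

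The queen effect differed between LV and long bones for ENSFDAG00000020801 (8.02 on the log2 scale) by the interaction term in edgeR. The fitted value depends on LV libraries with 0 counts and is no measure of a fold change.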

How the results depend on the processing

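With the colony block, 0 genes passed an FDR of 10% under DESeq2 size factors, filterByExpr, limma voom, only the 3 queens and their sisters and each animal left out in turn, against 37 with the DESeq2 Wald test and 167 with no filter on low counts. With no filter, 451 genes were higher and 149 lower at an unadjusted p under 0.05. The lower genes numbered 77 in the 6 younger animals alone, 17 with age class in place of the colony block and 173 with helpers as the only nonbreeders, and with no block 127 were higher in the 6 younger animals. With no block at all 387 were higher and 384 lower. Leaving out 1 animal gave 49 (without WAF014) to 298 (without LAF007) higher and 21 (without DVF007) to 85 (without WEF002) lower genes. Why these counts moved was not tested.

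Without the colony block, against all nonbreeders and against helpers only, the leukocyte median was -0.81 and -0.91 and the cell cycle median -0.28 and -0.11, and the resorption median was 0.20 against helpers. In the same order, log2 fold changes turned to -1.89 and -1.61 for *CD180*, -0.81 and -0.48 for *TLR8*, -1.09 and -0.87 for *CLEC4E*, -1.20 and -1.12 for *C3AR1*, -0.29 and -0.37 for *ARL11*, -0.44 and -0.28 for *CTSS* and -3.95 and -3.45 for ENSFDAG00000002758. With 1 animal left out and the block kept, the leukocyte median lay between 0.91 and 1.35 and the resorption median between 0.58 and 1.26. With no block and without WAF014, a setting added after the data were seen, 284 genes were lower at an unadjusted p under 0.05, the leukocyte, resorption, matrix and cell cycle medians were -1.85, -0.076, -0.47 and -0.22, and log2 fold changes were -0.92 for *ADAM8*, -2.44 for *CD180*, -2.19 for *TLR8*, -1.85 for *CLEC4E*, -0.028 for *SHTN1*, -0.13 for *SGPL1*, -2.23 for *C3AR1*, -1.23 for *ARL11*, -0.80 for *COL5A2*, -0.93 for *CTSS*, -8.79 for ENSFDAG00000002758 and -1.80 for ENSFDAG00000012109.

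For the difference between bone types, genes past an FDR of 10% numbered 16 with no filter, 0 with limma voom and 0 with bone type by colony left out of the block. Genes higher in LV numbered 107 with no filter, 44 with filterByExpr, 68 in the 6 younger animals and 155 without colony, and lower genes 135 with no filter and 141 without colony. With 1 animal left out these were 0 to 1, 15 to 158 and 47 to 126. The queen minus nonbreeder difference in log2 CPM then ranged from 0.69 to 1.06 for *CTSK*, 0.45 to 1.40 for *COL1A1*, 0.17 to 1.64 for *ENG*, -0.36 (without WAF014) to 2.21 for *ADAM8* and -1.15 to 0.62 (without DVF007) for *LAPTM5*. Depth limits the values under about 1 CPM, where a count of 0 allows up to 0.184 to 0.529 CPM.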

Other observations

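Among list members named for their smallest p, the transcription factor gene *OSR2* was higher in the queen in 3 of 3 pairs, as were 7.92% of all genes, at low levels, with 4.04, 1.51 and 2.99 CPM in the DV, LA and WA queens against 0.449, 1.01 and 2.46 CPM in the sisters (log2 fold change 1.16 ± 0.59, p = 0.0843). The value was 0.40 without DVF008, the DV sister, and 0.028 without the block. *TCF7L1*, a repressor of Wnt target genes, was read at 11, 8.96 and 15 CPM in the queens and at 12.2 to 43.1 CPM in the nonbreeders (-0.56 ± 0.31 with the block and -1.0 without it, p = 0.107 and 0.0216). *ZEB1*, a transcription factor of mesenchymal cells, was read at 119, 111 and 100 CPM in the queens, 74.6 to 110 CPM in the sisters and as low as 36.8 CPM in the older nonbreeders (0.20 ± 0.25 with the block and 0.71 without it, p = 0.438 and 0.0252). *ERO1A*, an oxidase of protein folding, was lower in the DV and LA queens and level in the WA pair (-0.48 ± 0.27, p = 0.109).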
